A study of Mus musculus with 18 samples.

Results

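Col20a1 and 9 marker genes of oligodendrocyte precursors and newly formed oligodendrocytes, Pdgfra, Cspg4, Olig1, Olig2, Sox10, Gpr17, Bcas1, Enpp6 and Neu4, were followed in the frontal cortex of WT, APP/PS1 and APP/PS1/FTnKO mice. They were taken by gene name and are 10 of the 55487 genes in the count table, of which 17414 had enough counts to be tested, all 10 members included. Col20a1 was selected on its counts, for its difference from APP/PS1 to APP/PS1/FTnKO in these same mice, so that its values in the genotypes are a description and carry no test. The 9 others are known markers of the lineage, and they too were picked with earlier results of these data known.

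Oligodendrocyte precursors are dividing glial cells that persist in the adult cortex and are held in the precursor state by platelet-derived growth factor acting on the receptor Pdgfra. Cells that leave that state pass through a short stage in which Gpr17, Bcas1 and Enpp6 are high, and then switch on the myelin genes. Olig1, Olig2 and Sox10 are transcription factors used through the whole lineage, while Col20a1 encodes the alpha chain of a collagen of the fibril-associated (FACIT) family.

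The 18 mice, aged 9 to 10 months, were 6 of each genotype, with 3 females and 3 males in each. APP/PS1 mice carried the transgenes of that line, and APP/PS1/FTnKO mice carried in addition a CamKIIα-Cre transgene, which acts in forebrain neurons, on homozygous floxed alleles of the farnesyltransferase β-subunit gene Fntb. The study's methods describe all 3 genotypes as littermates homozygous for those floxed alleles, the APP/PS1 and WT mice without Cre, whereas the GEO record names the WT mice C57BL/6J. Each library is bulk tissue, in which fewer cells of a type and less RNA per cell cannot be told apart.

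WT mouse 19622, a female, stood apart from the other 17 mice. The summed level of 6 cerebellar marker genes was 2262 CPM (counts scaled to a common library size) in this mouse and 1.34 to 1.89 in the other WT mice, with ranges of 1.24 to 3.17 (APP/PS1) and 1.17 to 2.27 (APP/PS1/FTnKO) and 1 of the 6 genes at 0 in the other WT mice. The 6 excitatory neuron markers summed to 441 CPM in 19622 against 4383 to 6122 in the other WT mice. Values below are for the 17 mice, and 19622 is given apart. Total counts ran from 15925432 to 21030935 per mouse, and normalized CPM of Fntb was 14.1 to 32.2 (WT), 14.2 to 32.1 (APP/PS1) and 7.84 to 14.7 (APP/PS1/FTnKO) (medians 16.9, 15.8 and 12.6). RNA integrity numbers (RIN) were 8.5 to 8.8, 7.7 to 8.7 and 7.6 to 8.7 in the same order.

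Col20a1 (ENSMUSG00000016356, GRCm38 chromosome 2, 180986535 to 181018363, plus strand) was highest in APP/PS1/FTnKO mice. Its normalized CPM in APP/PS1/FTnKO mice was 14.1, 17.5 and 14.3 in the females and 10.9, 13.1 and 13.7 in the males. In APP/PS1 mice it was 7.57, 5.72 and 8.79 in the females and 9.13, 7.70 and 5.82 in the males. In WT mice it was 7.10 and 6.67 in the females and 7.01, 5.30 and 6.56 in the males, and 6.34 in 19622. Every APP/PS1/FTnKO mouse, of either sex, lay above every mouse of the other genotypes, while the APP/PS1 and WT mice overlapped. These levels rested on 183 to 374 reads per APP/PS1/FTnKO mouse and 99 to 157 reads in the others.

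The group means of Col20a1 were 13.96 ± 2.13 (SD, n = 6) in APP/PS1/FTnKO, 7.45 ± 1.44 (n = 6) in APP/PS1 and 6.53 ± 0.723 (n = 5) in WT mice. The log2 fold change was 0.90 (SE 0.13, 95% interval 0.64 to 1.17) from APP/PS1 to APP/PS1/FTnKO, a 1.87-fold difference in level. It was 1.08 (SE 0.13, 0.80 to 1.37) between APP/PS1/FTnKO and WT and 0.18 (SE 0.14, -0.11 to 0.47) between APP/PS1 and WT. The 3 comparisons share mice, since each group enters 2 of them. Of the 17414 tested genes, 37 (0.212%) had every APP/PS1/FTnKO mouse above every other mouse, 104 (0.597%) had every APP/PS1/FTnKO mouse above every APP/PS1 mouse and 479 (2.75%) had every one above every WT mouse. For APP/PS1 and WT, where Col20a1 and the 9 markers overlapped, 297 genes (1.71%) had every APP/PS1 mouse above every WT mouse and 121 had every one below. Because Col20a1 was picked for this pattern, nothing is read from its being among them. With all 18 mice the 3 differences of Col20a1 were 0.90, 1.10 and 0.21, and leaving out each mouse in turn gave 0.82 to 0.99, 1.02 to 1.14 and 0.09 to 0.26.

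**Figure D1:**
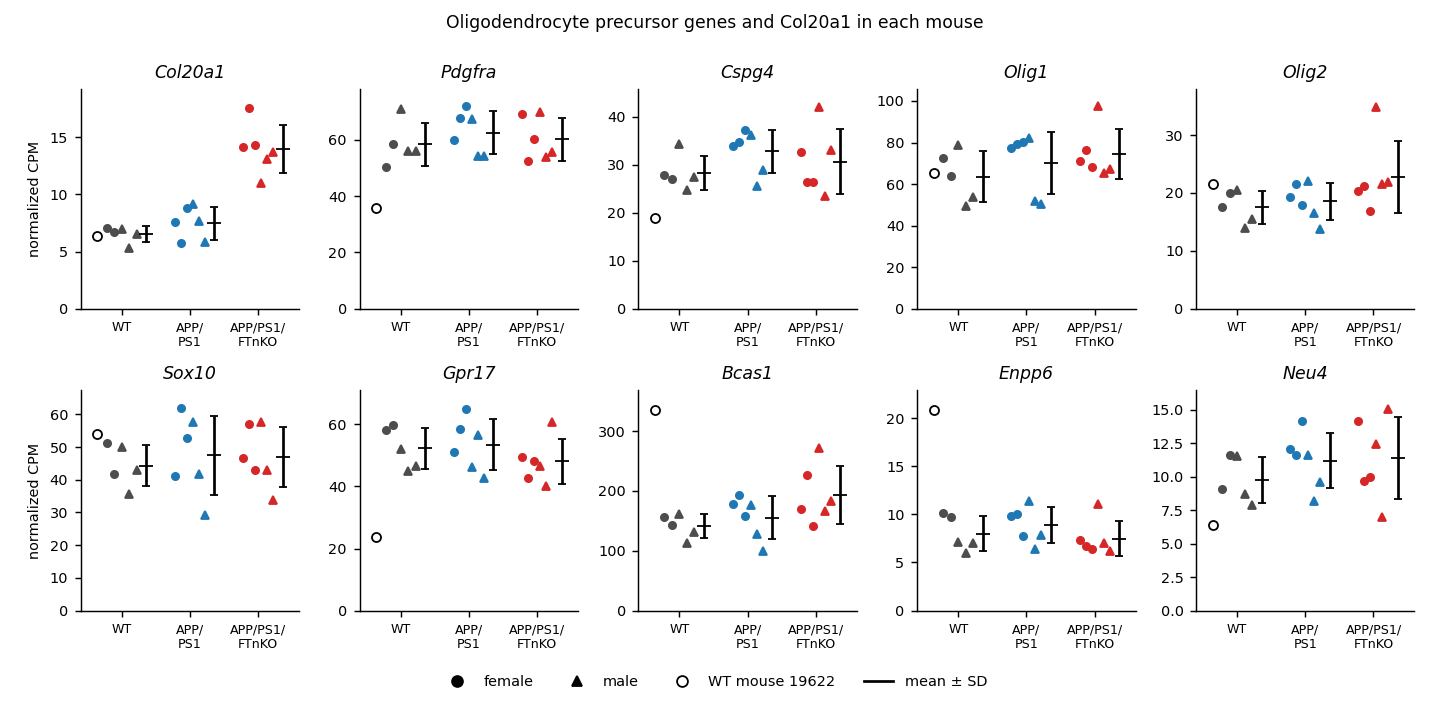
Normalized CPM (vertical axes, from 0) of Col20a1 and the 9 markers in each mouse by genotype (circles females, triangles males, open circle WT mouse 19622, bars mean ± SD of 5 WT, 6 APP/PS1 and 6 APP/PS1/FTnKO mice). In Col20a1 the 6 APP/PS1/FTnKO mice sit between 10.9 and 17.5, above the 5.30 to 9.13 of the other 11 mice, and in each marker the genotypes overlap.

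The DNA before the start of Col20a1 is shown beside that of Pdgfra, the marker that defines precursors. RefSeq promoter entries of build GRCm38.p6 were found for 6 members (Col20a1, Pdgfra, Cspg4, Olig2, Enpp6 and Neu4), and the 250 bases before the RefSeq start are printed 5′ to 3′ on the plus strand. For Pdgfra that start lies upstream of the gene start given with its values, which is from the GENCODE annotation. Both strands were searched for the core ACAAAG that SOX factors bind (CTTTGT on the other strand) and for the E-box CAGCTG that basic helix-loop-helix factors bind, which reads the same on both strands, and capitals mark a match.
Col20a1 (chr2:180986285-180986534): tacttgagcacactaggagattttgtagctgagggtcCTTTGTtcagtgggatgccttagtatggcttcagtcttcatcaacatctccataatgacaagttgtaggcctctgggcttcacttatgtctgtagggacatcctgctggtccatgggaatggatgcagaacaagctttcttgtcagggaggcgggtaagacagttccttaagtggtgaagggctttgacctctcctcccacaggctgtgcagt
Pdgfra (chr5:75152001-75152250): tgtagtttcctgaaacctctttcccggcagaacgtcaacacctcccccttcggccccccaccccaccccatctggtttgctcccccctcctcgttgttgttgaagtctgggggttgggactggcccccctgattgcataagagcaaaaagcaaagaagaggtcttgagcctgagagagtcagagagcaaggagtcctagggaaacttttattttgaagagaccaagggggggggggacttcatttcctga
Col20a1 held 1 match to the SOX core, which begins 213 bases before the start, and Pdgfra held none. Among the 6 members with an entry, Col20a1 alone held the SOX core and 0 held the E-box, against 16.5% and 13.0% of the 32851 promoters of the same length. A match of 6 letters is a description of the sequence and not a binding site.

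The genes around Col20a1 were looked at as a check of the place. Of the 4 nearest tested genes on each side, those described here, Ythdf1, Nkain4, Arfgap1 and 9230112E08Rik before it and Chrna4, Eef1a2 and Ppdpf after it, were not called in any of the 3 comparisons by the quasi-likelihood test of edgeR, with p-values adjusted over all genes by Benjamini-Hochberg (FDR threshold 0.05). The transcript 9230112E08Rik (chromosome 2, 180983924 to 180987275) overlaps the 5′ end of Col20a1 on the same strand, and reads in the overlap cannot be told apart. Its own log2 fold change was 0.05 (SE 0.11, edgeR FDR = 0.915) from APP/PS1 to APP/PS1/FTnKO. Chrna4, which encodes a nicotinic receptor subunit and ends just beyond Col20a1 on the other strand, had -0.17 (SE 0.11, edgeR FDR = 0.608).

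Pdgfra (ENSMUSG00000029231, chromosome 5, 75152292 to 75198215), the receptor on which precursors depend, was at nearly the same level in all genotypes. Its normalized CPM in WT mice was 50.3 and 58.6 in the females and 70.8, 55.8 and 55.8 in the males. The lowest, median and highest were 54.0, 63.6 and 71.9 in APP/PS1 and 52.5, 58.0 and 69.7 in APP/PS1/FTnKO mice. The 3 groups overlapped over nearly their whole ranges. On the log2 scale the fold change from APP/PS1 to APP/PS1/FTnKO was -0.05 (SE 0.10, edgeR FDR = 0.882), and its 95% interval in folds was 0.836 to 1.11. Against WT it was 0.10 (SE 0.10, edgeR FDR = 0.717) in APP/PS1 and 0.04 (SE 0.10, edgeR FDR = 0.847) in APP/PS1/FTnKO mice. Leaving out each mouse gave -0.11 to -0.01 from APP/PS1 to APP/PS1/FTnKO and 0.03 to 0.18 between APP/PS1 and WT.

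Cspg4 (ENSMUSG00000032911, chromosome 9, 56865033 to 56899870) encodes NG2, the surface proteoglycan by which precursors are commonly stained. Its normalized CPM in WT mice was 27.9 and 27.1 in the females and 34.3, 24.7 and 27.5 in the males. It ran from 25.5 to 37.3 (median 34.2) in APP/PS1 and from 23.4 to 42.1 (median 29.5) in APP/PS1/FTnKO mice. The widest spread was thus in APP/PS1/FTnKO mice, whose lowest and highest values bracketed those of all other mice. The log2 fold change was -0.10 (SE 0.13, edgeR FDR = 0.829) from APP/PS1 to APP/PS1/FTnKO and 0.21 (SE 0.14, edgeR FDR = 0.503) between APP/PS1 and WT. The first was -0.21 without mouse 16974, an APP/PS1/FTnKO male, and -0.03 without mouse 18973 of the same genotype. Neu4 (ENSMUSG00000034000, chromosome 1, 94020451 to 94028334), a sialidase of the lineage, averaged 9.76 ± 1.71 (SD, n = 5) in WT, 11.2 ± 2.07 (n = 6) in APP/PS1 and 11.4 ± 3.05 (n = 6) in APP/PS1/FTnKO mice. Its log2 fold change between the latter genotypes was 0.03 (SE 0.17, edgeR FDR = 0.962), and its range in APP/PS1/FTnKO mice, 7.01 to 15.1, covered that of the other 11.

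Among the transcription factors of the members, Olig2 (ENSMUSG00000039830, chromosome 16, 91225457 to 91228677) had the largest log2 fold change in APP/PS1/FTnKO mice against either other genotype, and a single mouse carried much of it. Its normalized CPM in WT mice was 17.6 and 20.0 in the females and 20.5, 13.9 and 15.5 in the males, and it ran from 13.8 to 22.1 (median 18.6) in APP/PS1 mice. In APP/PS1/FTnKO mice it was 20.4, 21.1 and 16.8 in the females and 34.8, 21.6 and 21.9 in the males. The male with 34.8, mouse 16974, lay apart, and the other 5 fell within the APP/PS1 range. On the log2 scale the fold change was 0.29 (SE 0.16, edgeR FDR = 0.506) against APP/PS1 and 0.38 (SE 0.16, edgeR FDR = 0.184) against WT, and without mouse 16974 it was 0.13 and 0.21. Olig1 (ENSMUSG00000046160, chromosome 16, 91269772 to 91271933), its neighbour and paralog, averaged 63.6 ± 12.4 (SD, n = 5) in WT, 70.2 ± 14.9 (n = 6) in APP/PS1 and 74.3 ± 12.02 (n = 6) in APP/PS1/FTnKO mice. The log2 fold change of Olig1 from APP/PS1 to APP/PS1/FTnKO was 0.09 (SE 0.14, edgeR FDR = 0.856) and turned to -0.02 without mouse 16974, which had 97.5 CPM. Sox10 (ENSMUSG00000033006, chromosome 15, 79154908 to 79165240), which directs the myelin genes, averaged 44.3 ± 6.33 (n = 5), 47.4 ± 12.2 (n = 6) and 46.8 ± 9.17 (n = 6). Its log2 fold change was -0.02 (SE 0.15, edgeR FDR = 0.979), with a 95% interval of 0.790 to 1.24 in folds.

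Of the genes of newly formed oligodendrocytes, Bcas1, Gpr17 and Enpp6 overlapped between the genotypes and none passed the edgeR threshold. Bcas1 (ENSMUSG00000013523, chromosome 2, 170346991 to 170427845), which marks cells starting to myelinate, had normalized CPM of 156 and 143 in the WT females and 162, 113 and 131 in the WT males. It was 98.8 at the lowest, 167 at the median and 192 at the highest in APP/PS1 mice, and 141, 177 and 272 in APP/PS1/FTnKO mice. The genotypes overlapped, and 5 of 6 APP/PS1/FTnKO mice lay above the WT median. On the log2 scale the fold change of Bcas1 was 0.32 (SE 0.16, edgeR FDR = 0.463) against APP/PS1 and 0.45 (SE 0.17, edgeR FDR = 0.135) against WT. The 95% interval of the difference from WT, 1.07 to 1.75 in folds, lay above 1 before adjustment over all genes. Without mouse 16974 these values were 0.18 and 0.30, and with all 18 mice the difference from WT was 0.20 (edgeR FDR = 0.684). Bcas1 was called against WT with no count filter (edgeR FDR = 0.0274) and against APP/PS1 with RIN as a term (edgeR FDR = 0.0339).

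Gpr17 (ENSMUSG00000052229), a G protein-coupled receptor of cells committed to differentiate, averaged 52.3 ± 6.67 (SD, n = 5) in WT, 53.4 ± 8.22 (n = 6) in APP/PS1 and 48.1 ± 7.16 (n = 6) in APP/PS1/FTnKO mice. Its log2 fold change from APP/PS1 to APP/PS1/FTnKO was -0.14 (SE 0.10, edgeR FDR = 0.643), or -0.25 without APP/PS1/FTnKO mouse 19720 and -0.09 without 19394, and 1 of 6 APP/PS1/FTnKO mice exceeded the APP/PS1 median. Gpr17 overlaps Lims2, which lies on the opposite strand at 13.5 CPM, and whether the counting used strand was not given in the sources used. Enpp6 (ENSMUSG00000038173, chromosome 8, 46986887 to 47096762), a choline phosphodiesterase switched on as precursors differentiate, was the weakest marker, with 8.01 ± 1.83 (n = 5), 8.87 ± 1.87 (n = 6) and 7.46 ± 1.81 (n = 6). In APP/PS1/FTnKO mice 5 values lay between 6.19 and 7.32 and mouse 16974 had 11.1. The log2 fold change of Enpp6 against APP/PS1 was -0.25 (SE 0.17, edgeR FDR = 0.629), and it was -0.42 without mouse 16974 and -0.14 without the APP/PS1 mouse 16975.

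**Figure D2:**
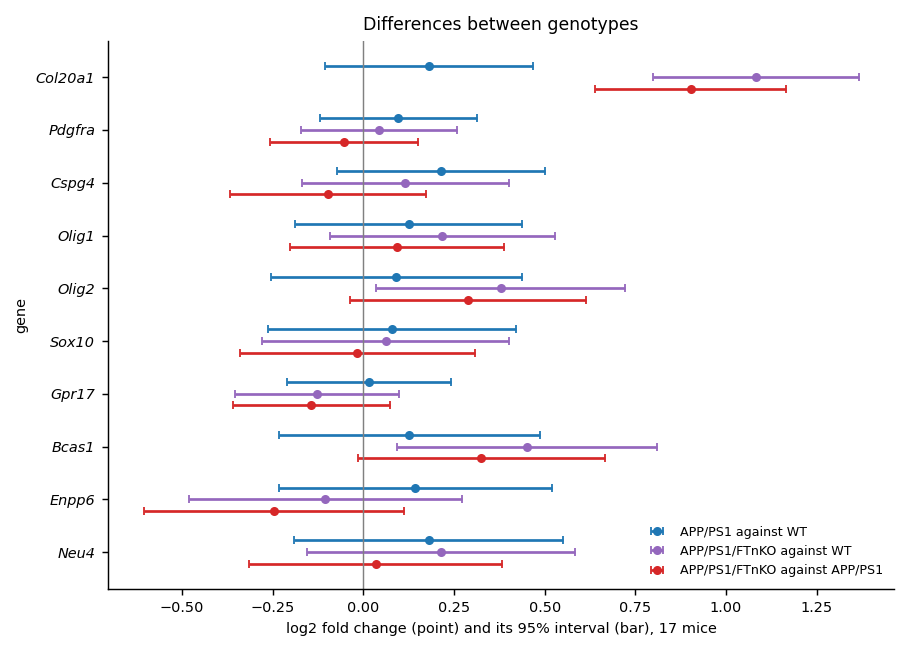
Log2 fold change (horizontal axis, points) with its 95% interval (bars) of each gene in the 3 comparisons, from the edgeR fit of 17 mice. Among the 9 markers the intervals of Olig2 and Bcas1 between APP/PS1/FTnKO and WT mice lie wholly above 0, and neither passed adjustment over all genes. With RIN as a term these values were 0.17 and 0.24. The bars of Col20a1 are a description, since it was chosen for its difference.

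Of the 9 markers, 0 were called from APP/PS1 to APP/PS1/FTnKO, where 57 of all tested genes (0.327%) were called. Of the 9, 4 were higher and 5 lower, with a median log2 fold change of -0.02 against -0.002 over all genes, and 0 had an unadjusted p under 0.05 against 11.5% of all genes. Between APP/PS1 and WT, where 1.5% of genes were called, 9 of 9 were higher in APP/PS1 with a median of 0.12 and 0 had an unadjusted p under 0.05 against 13.96% of all genes. That direction turned for 8 of the 9 with RIN as a term and for 2, Bcas1 and Enpp6, with all 18 mice. Between APP/PS1/FTnKO and WT, where 3.87% of genes were called, 7 of 9 were higher with a median of 0.12, and the 2 with an unadjusted p under 0.05 were Bcas1 and Olig2, against 22.1% of all genes. DESeq2 and limma-voom called 0 of the 9 in all 3 comparisons, as did edgeR with 19622 included. Of the genes to which DESeq2 gave an adjusted p, it called 1.76% from APP/PS1 to APP/PS1/FTnKO, 2.69% between APP/PS1 and WT and 8.41% between APP/PS1/FTnKO and WT. A count of 0 in 9 is near the background share in each comparison, and the intervals describe how far the markers may have moved.

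The markers varied with the RNA integrity number, whose median was 8.7 in WT, 8.2 in APP/PS1 and 8.6 in APP/PS1/FTnKO mice, a relation looked for after the data were seen. The male with 34.8 CPM of Olig2, mouse 16974, had the lowest RIN of all (7.6), and the APP/PS1 mouse with the highest Olig1, mouse 16975, had the next lowest (7.7). After the means of genotype and sex were removed, Pearson's r between log2 CPM and RIN over the 17 mice was negative for 9 of 9 markers, with a median of -0.79. Over all tested genes the median was -0.03, with 51.9% negative. Other lists showed it too, with medians of -0.75 for the mature oligodendrocyte markers (14 of 14 negative) and -0.61 for the astrocyte markers (8 of 8 negative), while the excitatory neuron markers had 0.71 (0 of 6 negative). The 14 other precursor markers had -0.41, with 10 negative and a range of -0.75 to 0.69. Among the members r was -0.85 for Olig1 and Olig2, -0.82 for Enpp6, -0.80 for Bcas1, -0.79 for Cspg4, -0.69 for Sox10, -0.67 for Pdgfra and -0.47 for Neu4. Gpr17 and Col20a1 stood apart from these, with -0.005 and 0.16. Without mice 16974 and 16975 the median of the 9 was -0.58 over 15 mice, and the same sign held in 9 of 9. Enpp6 then had -0.35 and Sox10 -0.39, while Olig1 had -0.67 and Col20a1 0.35. The list medians became -0.61 (mature oligodendrocytes), -0.44 (astrocytes), 0.58 (excitatory neurons) and -0.18 (the 14 other precursor markers).

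With RIN as a further term in the edgeR fit, Olig2 and Bcas1 passed the threshold from APP/PS1 to APP/PS1/FTnKO, in a fit that called 261 of all 17414 genes (1.5%) against 57 without the term. On the log2 scale the fold change became 0.42 (SE 0.09, edgeR FDR = 0.0291) for Olig2 and 0.47 (SE 0.10, edgeR FDR = 0.0339) for Bcas1. The spread fell with it, from an SE of 0.16 in both. Against WT the same term lowered the values of APP/PS1/FTnKO mice, from 0.38 to 0.17 (SE 0.10, edgeR FDR = 0.397) for Olig2 and from 0.45 to 0.24 (SE 0.11, edgeR FDR = 0.268) for Bcas1. Between APP/PS1 and WT the same term turned 8 of the 9 markers, all but Gpr17, from higher to lower, and none was called. Col20a1 moved little, with 0.88 (SE 0.13) against APP/PS1 and 1.11 (SE 0.14) against WT. The RIN and the genotype are partly tied here, and what set the RIN of each mouse was not tested.

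**Figure D3:**
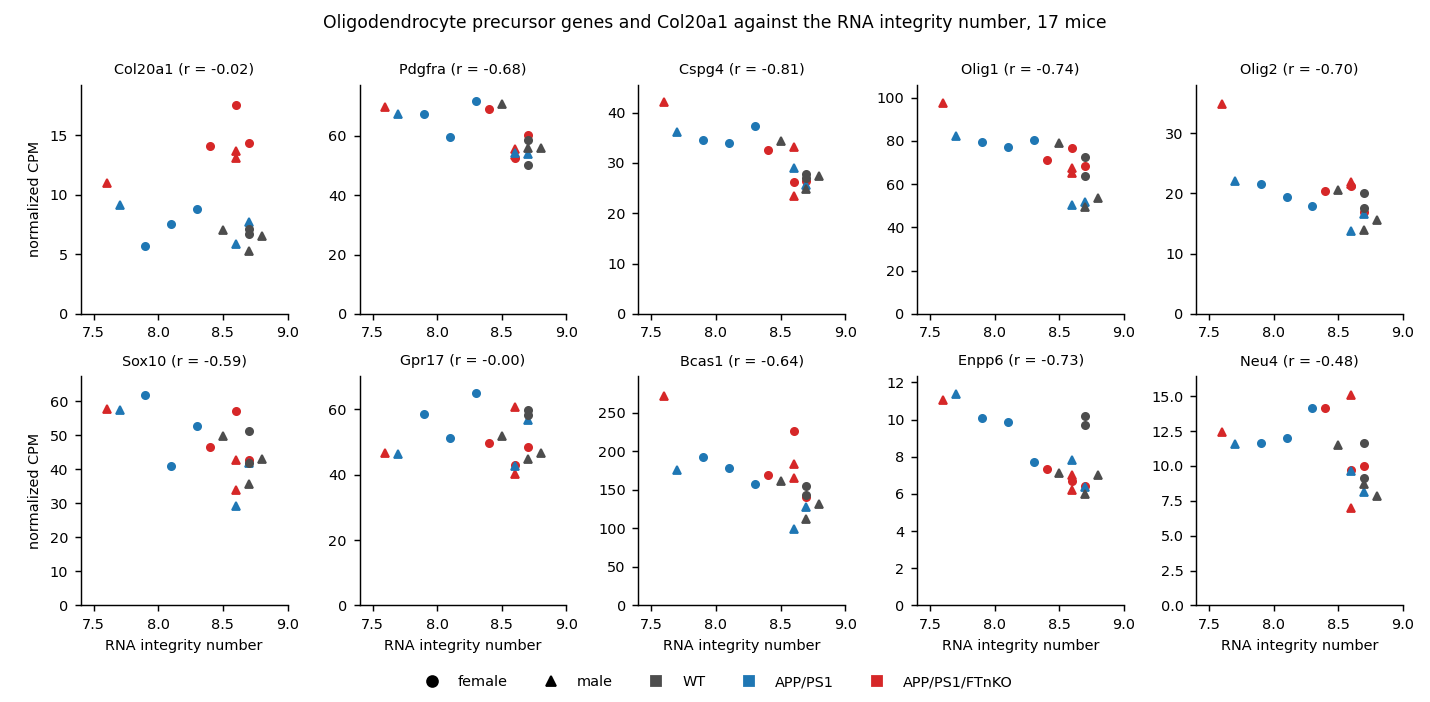
Normalized CPM (vertical axes, from 0) of each gene against the RNA integrity number (horizontal axes) in the 17 mice, coloured by genotype, with Pearson's r of log2 CPM and RIN over the 17 mice above each panel, no means removed. Olig1, Olig2, Cspg4 and Enpp6 fall from left to right, whereas Gpr17 and Col20a1 do not follow the RIN.

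Taken per kilobase of exon, the 10 genes differed widely in level over the 17 mice. Bcas1 had 43.5 CPM per kilobase, Olig1 32.2, Sox10 15.2, Gpr17 9.85, Olig2 7.80 and Pdgfra 6.03. Cspg4 (2.57) and Neu4 (2.34) were neighbours in this order, and Col20a1, with 1.84, stood above Enpp6 alone, with 1.27. In APP/PS1/FTnKO mice Col20a1 reached 2.71 ± 0.415 (SD, n = 6) CPM per kilobase, beside 2.46 ± 0.658 for Neu4 and 2.57 ± 0.567 for Cspg4, values that overlap within their spread. In WT mice Col20a1 had 1.27 ± 0.141 (n = 5), beside 1.25 ± 0.285 for Enpp6, again within their spread, and below the 2.105 ± 0.369 of Neu4.

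The markers were correlated with each other from mouse to mouse, and Col20a1 less with them. Among the 36 pairs of markers the median Pearson's r of log2 CPM over the 17 mice was 0.51 (0.03 to 0.92), and 0.56 (-0.05 to 0.92) after the means of genotype and sex were removed. The closest pairs after that removal were Olig2 with Bcas1 (0.92), Olig1 with Bcas1 (0.88) and Olig1 with Olig2 (0.88), followed by Cspg4 with Neu4 (0.82) and Cspg4 with Olig1 (0.82). Gpr17 was the exception among the markers, with -0.05 to 0.38 for all but Neu4 (0.58). Col20a1 had a median r of 0.19 (-0.26 to 0.55) with the 9 markers, and of 0.02 (-0.15 to 0.25) with the means removed. Genes of the same libraries share depth and RNA quality, and these values are a description with no test.

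**Figure D4:**
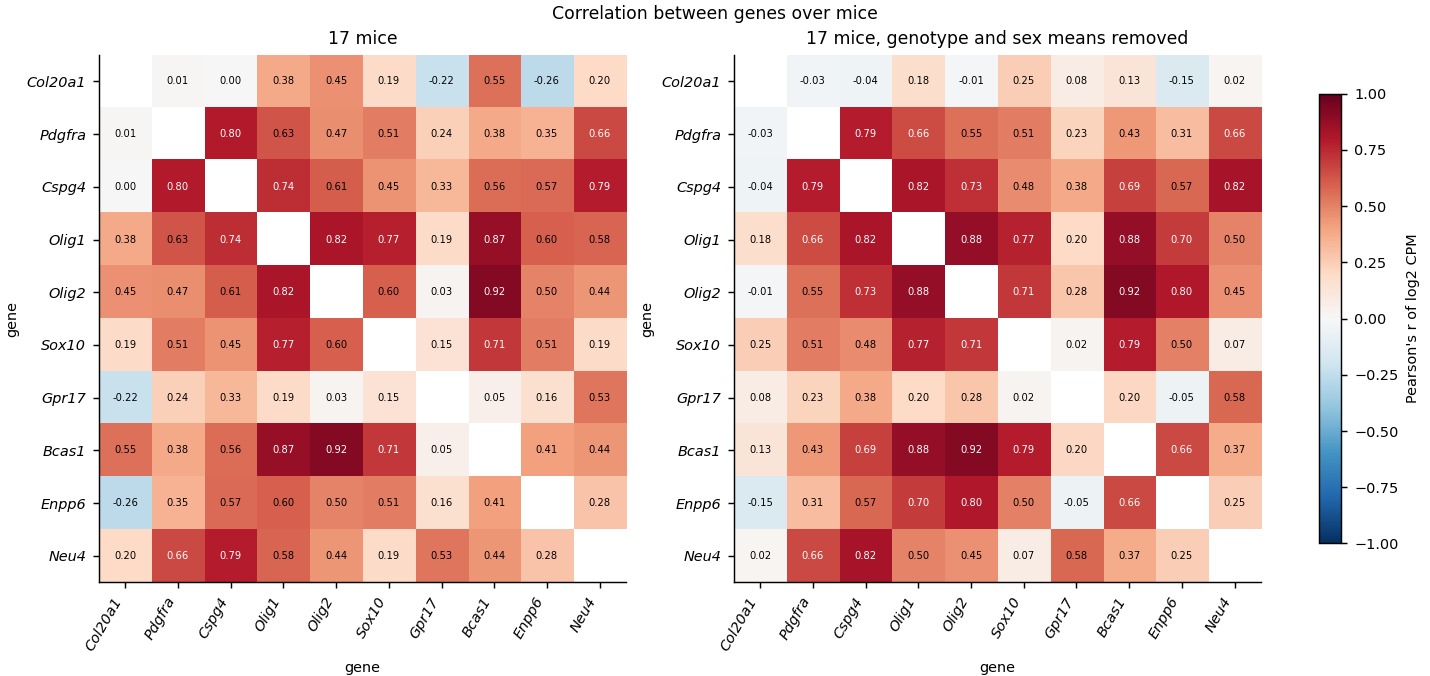
Pearson's r of log2 CPM between each pair of the 10 genes over 17 mice (left) and after removing the means of genotype and sex (right), on a color scale from -1 to 1. On the right the first row and column, Col20a1, stay pale, with 0.25 as the highest value, while Olig1, Olig2 and Bcas1 form a dark block (0.88 to 0.92). On the left Col20a1 reaches 0.55, with Bcas1.

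The genes whose pattern was most like that of Col20a1 over the 17 mice were not lineage markers. They were Smyd5 (r = 0.91), Hnrnph3 (0.89), Fbf1 (0.88), Exosc8 (0.87), Hsf4 (0.87), Cfap46 (0.87), Hmga1 (0.87) and Fam229b (0.86). Of these, Hmga1 had the log2 fold change nearest to that of Col20a1 from APP/PS1 to APP/PS1/FTnKO, 1.01, and Fbf1 the smallest, 0.13. With Spearman's rho in place of r, 4 of the 8 were shared. With the means of genotype and sex removed, the 8 most alike included Gm34552 (0.87), Hsd17b1 (0.85), Gm45250 (0.82), Eif2ak4 (0.81), Ap5z1 (0.79), Gm42770 (0.79) and Ercc5 (0.78), none of which was in the first 8. Of this second list 3 of 8 were shared with Spearman's rho. Gm34552, Hsd17b1 and Gm42770 were low in level, with mean CPM of 0.96, 0.55 and 0.92.

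There were 14 precursor markers outside the members. From APP/PS1 to APP/PS1/FTnKO 5 were higher and 9 lower, the median log2 fold change was -0.04, and 0 were called by edgeR, DESeq2 or limma-voom, with 0 at an unadjusted p under 0.05. The most abundant were Ptprz1, a receptor phosphatase, with -0.04 (SE 0.07), Tnr, a matrix glycoprotein, with -0.03 (SE 0.08), Xylt1 with -0.07 (SE 0.11) and Cacng4 with 0.004 (SE 0.11). The summed level of the 14 was 796 to 855 CPM (WT), 760 to 834 (APP/PS1) and 717 to 826 (APP/PS1/FTnKO). Most of that sum came from Ptprz1 (mean 262 CPM) and Tnr (224 CPM). Against WT, 6 of the 14 were higher in APP/PS1 (median -0.05) and 5 in APP/PS1/FTnKO mice (median -0.05), beside 9 and 7 of the 9 members, and the lists were not tested against each other. Of the 12 other markers of newly formed oligodendrocytes, 5 were higher and 7 lower with a median of -0.04, 0 called by the same 3 tools and 0 at an unadjusted p under 0.05, among them Fyn, a kinase of early myelination, with 0.08 (SE 0.04). Of the 14 mature oligodendrocyte markers, 9 were higher and 5 lower with a median of 0.003, 0 called by these tools and 0 at an unadjusted p under 0.05, and Mbp, a main protein of myelin, had 0.11 (SE 0.16). Against WT, 0 genes of these 3 lists were called by edgeR, DESeq2 or limma-voom in APP/PS1 or APP/PS1/FTnKO mice.

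The growth factors that act on precursors were measured too. Of Pdgfa, Pdgfb, Pdgfc, Pdgfd and the second receptor Pdgfrb, 0 were called by edgeR in any comparison. An unadjusted p under 0.05 was found for 1 from APP/PS1 to APP/PS1/FTnKO (11.5% of all genes) and 1 between APP/PS1 and WT (13.96%), both Pdgfb. Pdgfa, the ligand that drives precursors, had a log2 fold change of -0.03 (SE 0.07) from APP/PS1 to APP/PS1/FTnKO. Pdgfb had -0.45 (SE 0.11) with an edgeR FDR of 0.101 and was called by DESeq2 (FDR = 0.0143), which called 1.76% of genes there, and not by limma-voom. Of the 14 other transcription factors of the lineage, 6 were higher and 8 lower between these genotypes, 2 had an unadjusted p under 0.05 (11.5% of all genes) and 0 were called by edgeR or limma-voom. DESeq2 called 1 of these, Hes5, a Notch target that holds back differentiation, with -0.68 (SE 0.16, edgeR FDR = 0.0774, DESeq2 FDR = 0.00471). Against WT, where DESeq2 called 8.41% of genes, Hes5 in APP/PS1/FTnKO mice had -0.52 (SE 0.17, edgeR FDR = 0.0875, DESeq2 FDR = 0.0357). Pdgfb and Hes5 were singled out after their values were seen. Of the 8 proliferation genes that could be tested of 10, 5 were higher and 3 lower from APP/PS1 to APP/PS1/FTnKO, with 0 called by edgeR, DESeq2 or limma-voom and 0 at an unadjusted p under 0.05.

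Other collagens of the FACIT family were measured as well. Of 8 tested, 4 were higher and 4 lower from APP/PS1 to APP/PS1/FTnKO, from -0.18 to 0.26 on the log2 scale, with a median of -0.02 and 0 called by edgeR, DESeq2 or limma-voom and 0 at an unadjusted p under 0.05. Col16a1 was higher than in WT in APP/PS1 (0.72, SE 0.16, edgeR FDR = 0.0249) and APP/PS1/FTnKO mice (0.68, SE 0.16, edgeR FDR = 0.0243), and the first call was lost with RIN as a term. Col12a1 was lower than in WT in APP/PS1 mice (-0.96, SE 0.21, edgeR FDR = 0.0242), a call lost with all 18 mice, under limma-voom and with RIN as a term. DESeq2, which called 2.69% of all genes between APP/PS1 and WT, called 3 of the 8 there, these and Col9a3 (0.48, edgeR FDR = 0.0549, DESeq2 FDR = 0.00853), and 2 between APP/PS1/FTnKO and WT (8.41% of all genes), Col16a1 and Col12a1 (-0.70, edgeR FDR = 0.0658, DESeq2 FDR = 0.0168). From APP/PS1 to APP/PS1/FTnKO Col16a1 had -0.04 (SE 0.15) and Col12a1 0.26 (SE 0.20).

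**Figure D5:**
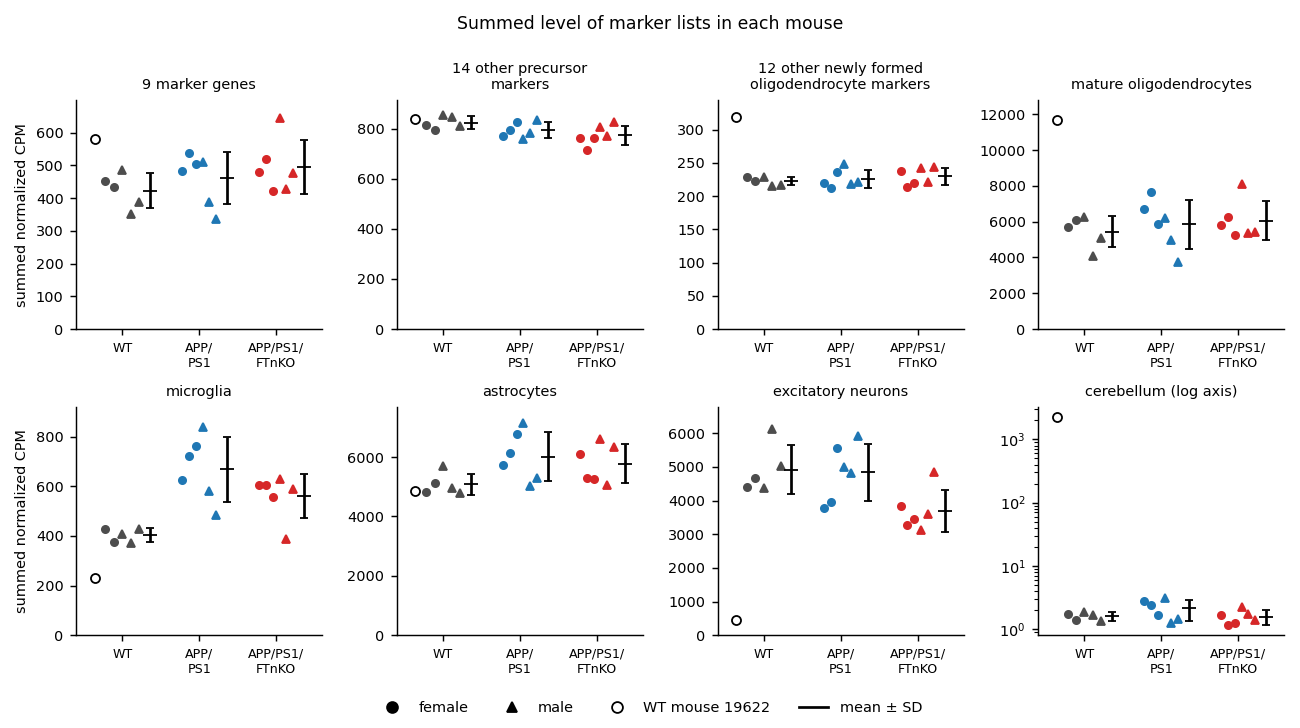
Summed normalized CPM (vertical axes, from 0 except the last, which is logarithmic) of marker lists in each mouse by genotype (circles females, triangles males, open circle WT mouse 19622, bars mean ± SD of the 17 mice). The 9 markers and the other lists of the lineage overlap between genotypes, the microglia list is higher in APP/PS1 (484 to 839) than in WT (373 to 429), and 19622 lies apart in cerebellar, neuronal and myelin lists.

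Markers of other cell types moved with the genotypes in part. Gfap, the filament of reactive astrocytes, was higher than in WT by 2.78 (SE 0.35, edgeR FDR = 0.000323) in APP/PS1 and by 2.53 (SE 0.35, edgeR FDR = 0.00098) in APP/PS1/FTnKO mice on the log2 scale, and it was the only one of the 8 astrocyte markers that edgeR called. DESeq2 also called Aqp4, the astrocyte water channel, named after its values were seen, between APP/PS1 and WT (0.46, edgeR FDR = 0.0536, DESeq2 FDR = 0.00636). Of 8 microglia markers, 4 were called higher in APP/PS1 than in WT (1.5% of all genes were called), C1qa, Csf1r and Cx3cr1 among them, and 2 in APP/PS1/FTnKO than in WT (3.87%), C1qa among them, the calls of Csf1r and Cx3cr1 being lost with RIN as a term. From APP/PS1 to APP/PS1/FTnKO 8 of 8 were lower, with a median of -0.255 on the log2 scale, with 4 at an unadjusted p under 0.05 (11.5% of all genes) and 0 called by edgeR, DESeq2 or limma-voom. The 6 excitatory neuron markers summed to 4383 to 6122 CPM (WT), 3781 to 5927 (APP/PS1) and 3113 to 4852 (APP/PS1/FTnKO), and Slc17a7 was called lower in APP/PS1/FTnKO than in WT mice (-0.46, SE 0.12, edgeR FDR = 0.0396), a call lost with all 18 mice and with RIN as a term. From APP/PS1 to APP/PS1/FTnKO 2 of the 6 were higher and 4 lower, 2 had an unadjusted p under 0.05 (11.5% of all genes), and edgeR and limma-voom called 0. DESeq2, which called 1.76% of genes there, called 2, Slc17a7 (-0.38, DESeq2 FDR = 0.0494) and Camk2a (-0.42, DESeq2 FDR = 0.0491). With RIN as a term edgeR, which then called 1.5% of genes, called Slc17a7 (FDR = 0.0155). Of the interneuron, endothelium, pericyte and meningeal fibroblast markers, 0 were called by edgeR, DESeq2 or limma-voom in any of the 3 comparisons. Of them, 1 had an unadjusted p under 0.05, from APP/PS1 to APP/PS1/FTnKO (11.5% of all genes). The part of these in the levels of Col20a1 was not tested.

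Neither Col20a1 nor the markers differed between the sexes beyond the spread. Over the 17 mice Col20a1 was higher in females by 0.13 on the log2 scale (SE 0.11, edgeR FDR = 0.898), and 7 of the 9 markers were higher in females with a median of 0.12. Of the 9, 0 were called by edgeR, DESeq2 or limma-voom and 0 had an unadjusted p under 0.05, where 12 of all genes (0.0689%) were called and 6.70% had such a p. Gpr17 came nearest, with 0.16 (SE 0.09, edgeR FDR = 0.796). The 14 mature oligodendrocyte markers were 14 of 14 higher in females with a median of 0.22, 4 at an unadjusted p under 0.05 and 0 called by these tools. Of the 14 other precursor markers 5 were higher and 9 lower (median -0.06), 3 at such a p. Of the 12 other newly formed oligodendrocyte markers 4 were higher and 8 lower (median -0.03), 0 at such a p. Of both lists 0 were called by these tools. In a fit with a sex by genotype term, 0 of the 9 markers and 0 of all genes were called, and 1 marker, Enpp6 between APP/PS1/FTnKO and WT, had an unadjusted p under 0.05.

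In 19622 the members lay on both sides of the other WT mice. Scaled with all 18 mice, Bcas1 and Enpp6 were high, with Bcas1 at 335 CPM, 2.38 times the mean of the other WT mice, and Enpp6 at 20.8, 2.603 times that mean. Low levels were found for Pdgfra at 35.7 (0.613 times), Cspg4 at 18.8 (0.666 times) and Neu4 at 6.39 (0.656 times), and Gpr17 was at 23.7 (0.453 times). These 6 lay outside the range of all other 17 mice, while Olig1, Olig2, Sox10 and Col20a1 lay within it. The mature oligodendrocyte markers summed to 11662 CPM in this mouse, against 4105 to 6279 in the other WT mice. With 19622 among the WT mice, the log2 fold change between APP/PS1 and WT turned to -0.14 for Bcas1 and -0.15 for Enpp6, and for Pdgfra it was 0.21, all uncalled by edgeR.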

How the data were processed

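RNA from the frontal cortex of 18 mice was sequenced, and the authors deposited a table of raw read counts per gene. Trimmomatic 0.33, FastQC 0.11.7, HISAT2 2.1.0 and featureCounts are named in the submitters' processing notes; the strand setting of featureCounts was not stated in those notes or the methods. Counts of genes were kept where edgeR's filterByExpr (minimum count 10) passed them, scaled by TMM and fitted by edgeR 4.0.16 (R 4.3.3) quasi-likelihood with genotype and sex as terms, in 17 mice without WT mouse 19622, with Benjamini-Hochberg adjustment over all 17414 genes (FDR 0.05). DESeq2 1.42.0 and limma 3.58.1 were alternatives, with others on filter, scaling, sex, RIN and mice. Log2 CPM used a prior count of 2. The code was tested on simulated data. The members and gene lists were chosen with earlier results of these data known. Named genes were the 10 members, from each list the called genes (at most 5 a comparison) and at most 4 of the most abundant others, Fntb, the 8 genes most like Col20a1 and its 4 neighbours on each side. The relation with RIN was added after the data were seen. Labels do not state separate litters, and p-values measure the spread between mice. Some genes that this rule names are not reported here.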

Additional observations from a re-analysis of the deposited data

Results flagged for a closer look

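In 30 checks of a gene within a genotype of the 17 mice, 3 gave a mouse far from the rest of its group, where chance gives about 1 in 20. All 3 were the same mouse, in genes correlated from mouse to mouse (r of 0.70 to 0.88 with the means of genotype and sex removed). These checks are thus not independent, and the 3 are not read as more than chance. WT was checked again with 19622, a mouse already set apart, and 2 of those 10 checks gave that mouse, a count not read against chance. Mouse 16974, an APP/PS1/FTnKO male with the lowest RIN of the study (7.6), had 97.5 CPM of Olig1 (65.2 to 76.5 in the other 5). The same mouse had 34.8 CPM of Olig2 (16.8 to 21.9 in the others). It had 11.1 CPM of Enpp6 (6.19 to 7.32 in the others). WT mouse 19622, with a RIN of 8.6, had 335 CPM of Bcas1 (113 to 161 in the other WT mice). It had 20.8 CPM of Enpp6 (6.03 to 10.1 in the others). The part of RNA quality and of the tissue taken in these values was not tested.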

How the results depend on the processing

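Besides leaving out each mouse, 9 alternatives were run. Over the tested values of the members, 288 kept direction and call, 22 uncalled values turned direction and 3 came to pass the threshold, while leaving out a mouse kept 599 and turned 30. Col20a1 between genotypes, which has no test, kept its direction in 27 of 27 such values and in 51 of 51 on leaving out a mouse. In the comparisons with APP/PS1/FTnKO this was set beforehand, since Col20a1 was chosen for its difference and those mice did not overlap the others. The cause of the turned directions was not tested. Genes called from APP/PS1 to APP/PS1/FTnKO were 57, but 2 with all 18 mice, 253 by DESeq2, 104 with no filter, 261 with RIN and 5 with only these genotypes, and from 10 to 81 on leaving out a mouse (APP/PS1 19554 and 16975). Between APP/PS1 and WT the 261 became 468 by DESeq2, 452 with no filter, 84 with RIN and from 124 to 465 on leaving out a mouse (WT 19053 and APP/PS1 19744). Between APP/PS1/FTnKO and WT the 674 became 261 with all 18 mice, 1321 by DESeq2, 388 with RIN and from 206 to 987 on leaving out a mouse (WT 19053 and APP/PS1/FTnKO 18973). Between the sexes the 12 became 31 by DESeq2 and 50 with no filter. Of the 9 markers, RIN gave 2 calls from APP/PS1 to APP/PS1/FTnKO, and no filter gave 1 between APP/PS1/FTnKO and WT, Bcas1. With RIN the log2 fold change between APP/PS1 and WT turned to -0.23 for Bcas1, -0.0488 for Cspg4, -0.22 for Enpp6, -0.0031 for Neu4, -0.20 for Olig1, -0.25 for Olig2, -0.0694 for Pdgfra and -0.21 for Sox10. With RIN it turned to 0.0038 for Cspg4, 0.0151 for Pdgfra and 0.11 for Sox10 from APP/PS1 to APP/PS1/FTnKO, to -0.0450 for Cspg4, -0.0543 for Pdgfra and -0.10 for Sox10 between APP/PS1/FTnKO and WT, and to 0.0178 for Cspg4 and 0.00098 for Olig2 between the sexes. With all 18 mice it turned to -0.14 for Bcas1 and -0.15 for Enpp6 between APP/PS1 and WT, 0.0207 for Gpr17 between APP/PS1/FTnKO and WT and -0.0470 for Pdgfra between the sexes. By limma-voom it turned to -0.0085 for Neu4 from APP/PS1 to APP/PS1/FTnKO and 0.0090 for Cspg4 between the sexes. Leaving out each mouse, the ranges that crossed 0 were, from APP/PS1 to APP/PS1/FTnKO, -0.0238 to 0.17 for Olig1, -0.12 to 0.0805 for Sox10 and -0.0930 to 0.13 for Neu4. Between APP/PS1 and WT they were -0.0265 to 0.19 for Sox10 and -0.0309 to 0.0644 for Gpr17. Between APP/PS1/FTnKO and WT they were -0.0093 to 0.19 for Cspg4, -0.0200 to 0.12 for Pdgfra and -0.0466 to 0.13 for Sox10. Between the sexes they were -0.0691 to 0.0670 for Cspg4, -0.10 to 0.0674 for Olig2 and -0.0030 to 0.0685 for Pdgfra. No paired analysis was possible because each mouse carries its own number and no number is shared between genotypes. Col20a1, Enpp6 and Neu4 rested on the fewest reads of the 10.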
